A study of Mus musculus with 10 samples.

Results

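The transcripts described here were those that reached a clear level in every liver tumor driven by c-MYC together with FOXO1AAA and stayed close to nothing in normal liver and in tumors driven by c-MYC alone. A gene was a member when its deposited log2 FPKM was at least 2.32 (5 FPKM) in each of the 3 c-MYC/FOXO1AAA libraries and under 0 (1 FPKM) in each of the other 7. FPKM are fragments scaled to transcript length and library size, and a comparison of levels between genes depends on the length used for each, which for some members was that of a short transcript. Of 16697 gene entries, 7955 met the upper limit, 2923 met the lower limit and 170 met both. Of those 170, 30 were set aside because their symbols belong to families that the rule named for exclusion, among them muscle structural genes, collagens, homeobox genes, ion channels and solute carriers. The excluded gene with the highest mean was Eef1a2 at 364 FPKM, followed by Tnnt3 at 160. The remaining 140 genes were the members, 135 of them protein coding. Because measured values in c-MYC/FOXO1AAA, c-MYC and NL chose these genes, their differences between the groups are given below as a description with no test.

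RNA was sequenced from whole mouse livers or liver tumors in 10 libraries to ask whether active FOXO1 alters the expression profile of c-MYC tumors. Normal liver (NL, n = 4) came from wild-type mice with no tumor. The c-MYC group (n = 3) carried tumors raised by hydrodynamic tail vein injection, in which plasmids are forced into hepatocytes and a transposase inserts them, using c-MYC and the empty pT3-EF1α vector. The c-MYC/FOXO1AAA group (n = 3) received c-MYC and, on the same vector, a MYC-tagged form of FOXO1 made constitutively active. All mice are labelled C57BL/6 with a WT genotype, whereas FVB or FVB/N is given for the normal livers in the extraction protocol and in the study itself. The study also gives FVB/N for the mice injected with c-MYC and either the empty vector or FOXO1AAA. For the empty-vector controls the text and the plasmid list of the study name c-MYC without MCL1. A figure legend names c-MYC with MCL1, so that MCL1 may be an additional difference between the tumor groups. NL mice received no tumor plasmids, so that injection, oncogene and tumor growth cannot be told apart in any comparison with NL. The labels do not say whether libraries of a group came from separate mice, and p-values measure only the spread between these libraries.

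FOXO1 is a forkhead transcription factor that enters the nucleus and activates genes of fasting metabolism, stress resistance, growth arrest and tissue wasting when insulin and AKT signaling are low. AKT phosphorylates it at conserved residues and drives it out of the nucleus, and forms that cannot be phosphorylated stay nuclear and active. In muscle FOXO factors switch on the ubiquitin ligases of atrophy, and in lymphocyte precursors FOXO1 is required for expression of the recombinase that assembles antigen receptors. Hepatocytes normally express few of the tissue-restricted genes of muscle, brain or lymphoid cells.

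Each library held between 13123719 and 20547746 reads over the listed genes. The Foxo1 entry checked the labels, since endogenous and introduced transcripts are counted together: its level was 7.16, 6.67, 7.86 and 6.80 FPKM in NL, 5.25, 6.45 and 5.16 FPKM in c-MYC and 95.6, 83.6 and 70.1 FPKM in c-MYC/FOXO1AAA. Every tumor that received FOXO1AAA lay far above all other samples. Of 12 hepatocyte markers, summed FPKM ranged from 93128 to 105143 in NL, from 4698 to 7133 in c-MYC and from 1153 to 2054 in c-MYC/FOXO1AAA. In whole tissue, fewer cells of a type and less RNA per cell cannot be told apart.

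Member transcripts were abundant in c-MYC/FOXO1AAA tumors and at trace levels elsewhere. Their summed level in c-MYC/FOXO1AAA was 3224.5, 2854 and 2561 FPKM. It was 23.3, 19.5 and 28.3 FPKM in c-MYC and 29.8, 25.6, 25.1 and 30.1 FPKM in NL. All 140 had reads in each c-MYC/FOXO1AAA library, whereas 98 to 109 had a read in a c-MYC library and 90 to 98 in an NL library. The mean level of a member in c-MYC/FOXO1AAA ran from 5.60 to 489 FPKM with a median of 11.5. It reached 10 FPKM in 83 members, 20 FPKM in 30, 50 FPKM in 8 and 100 FPKM in 2.

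In the control libraries these levels rested on a handful of reads. The median member had 14 reads summed over the 3 c-MYC libraries and 11 over the 4 NL libraries, and no member exceeded 82 reads in any of the 7. In 14 members not a single read was counted in any control library, among them Olig2, Chodl, Trim55, Osr2, Gm31294, Rag1, Rag2, St6galnac5, Sln, Impg1, Elovl4, Ptprr and Mdga2. A further 28 had between 1 and 3 reads in their highest control library, which made 42 with at most 3 reads in each. Over the c-MYC group, 22 members had 0 reads, 23 had 1 to 3 and 95 had more than 3. The median difference between c-MYC/FOXO1AAA and c-MYC was 6.25 on the log2 FPKM scale (6.27 when members with 0 reads were placed at their lower bound), and the median difference from NL was also 6.25. Single members ranged from 3.09 for Fos to 12.2 for Penk. Across all 14017 genes tested, 15.9% were called higher with FOXO1AAA than in c-MYC and 31.2% higher than in NL. By construction no member overlapped between c-MYC/FOXO1AAA and the controls, and of all genes 32.7% lay wholly above c-MYC and 44.1% wholly above NL. These shares are background only, since the rule fixed the direction for every member.

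Genes close to the limits showed how narrow the membership was at its edges. On the deposited scale the lowest c-MYC/FOXO1AAA values just inside the upper limit were 5.08 FPKM for Ahi1, 5.11 for Fos and 5.16 for Flnc, and those just outside were 4.92 for Camk2b, 4.85 for Rnf219 and 4.84 for Ackr3. The highest control values just inside the lower limit were 0.981 FPKM for Prss23, 0.980 for Gulp1 and 0.971 for Trps1, against 1.01 for Dpysl2, 1.02 for Camkv and 1.03 for Mfng just outside.

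**Figure D1:**
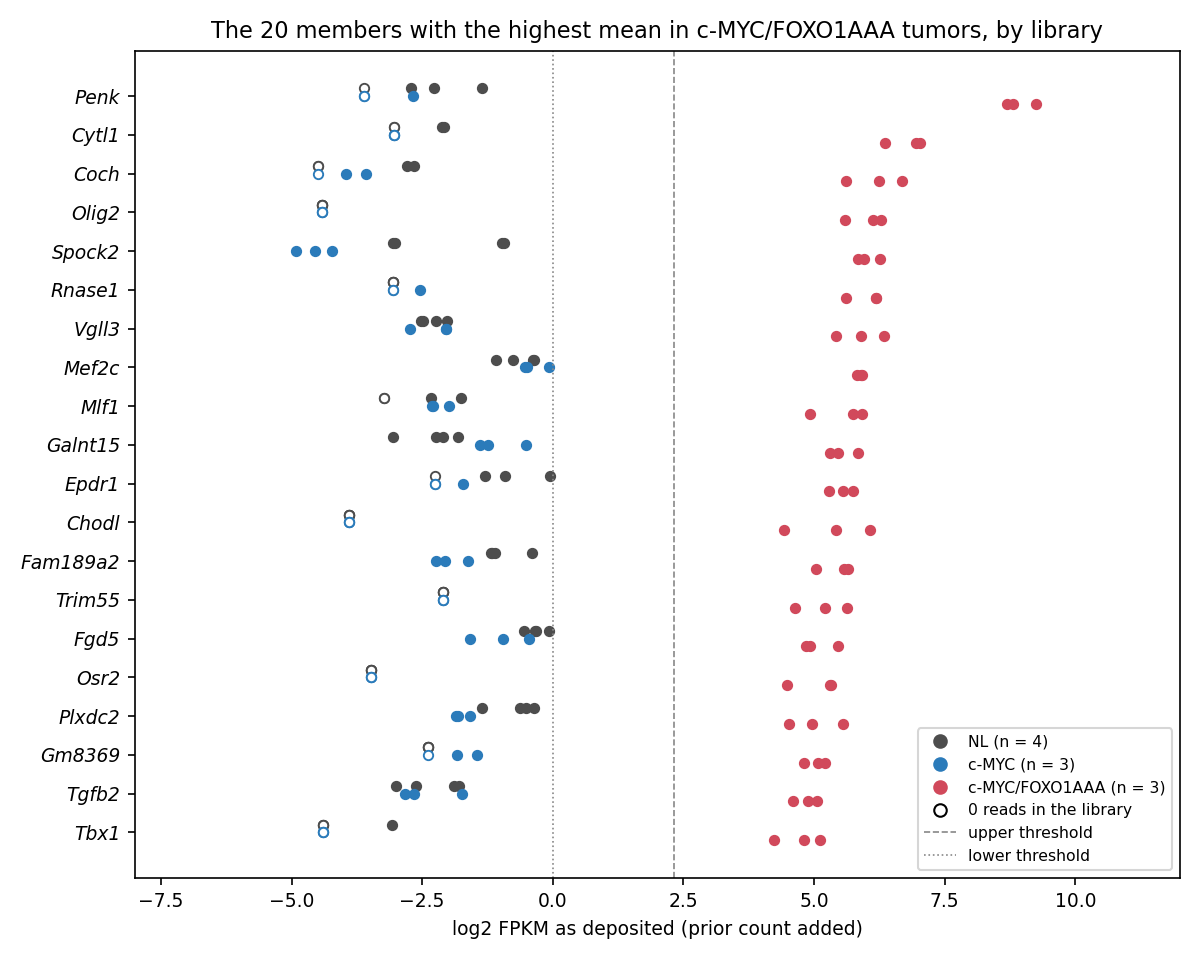
Deposited log2 FPKM (horizontal axis) of the 20 members with the highest mean in c-MYC/FOXO1AAA, each point a library (NL n = 4, c-MYC n = 3, c-MYC/FOXO1AAA n = 3), open points marking 0 reads and lines the limits of the rule. All c-MYC/FOXO1AAA points lie right of the dashed line at 2.32 and all control points left of the dotted line at 0, and Penk stands highest with a mean of 489 FPKM.

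Secreted and matrix proteins made up 18 members and held the highest levels, with a median of 16.6 FPKM in c-MYC/FOXO1AAA. Penk, which encodes the precursor of the opioid enkephalin peptides and lies at chr4:4133531-4138819 (GRCm38), was at 605, 414 and 446 FPKM in the 3 c-MYC/FOXO1AAA libraries, at 0, 0 and 0.0751 in c-MYC and at 0.125, 0, 0.0707 and 0.308 in NL. Its 2 reads in c-MYC placed the pooled ratio at 19569.7 (95% interval 5417 to 161593), an interval that covers only the counting error of the c-MYC reads. No c-MYC/FOXO1AAA library came near any other. Cytl1, a small secreted cytokine-like protein, was at 130.2, 124 and 81.5 FPKM in c-MYC/FOXO1AAA, had 0 reads in c-MYC and reached 0.114 FPKM in its highest NL library. Against 3 reads over the c-MYC group it was at least 2071-fold higher. Penk and Cytl1 were the only members above 100 FPKM on average.

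Coch, the matrix protein cochlin, was at 75.3, 103 and 48.7 FPKM in c-MYC/FOXO1AAA, with 3 reads over the c-MYC group and 6 over NL. Rnase1, a secreted ribonuclease, was at 72.4, 48.7 and 72.5 FPKM, with 1 read in c-MYC and 0 in NL. The matrix proteoglycan Spock2 was at 77.2, 62 and 57.2 FPKM, compared with 0.0312, 0.0203 and 0.0104 in c-MYC and 0.501, 0.101, 0.0978 and 0.489 in NL. Spock2 was thus more abundant in NL than in c-MYC, whereas the first pair was rare in both. Epdr1, an ependymin-related lysosomal and secreted protein, was at 46.7, 53.3 and 38.8 FPKM, with 1 read in c-MYC and 7 in NL. The other secreted members lay between 6.48 and 29 FPKM on average. They included Thbs1, an adhesive glycoprotein of the matrix, Plod2, a lysyl hydroxylase that prepares collagen for cross-linking, the gelatinase Mmp2, the microfibril genes Mfap2 and Thsd4, the small leucine-rich proteoglycan Ogn, the proteases Prss12 and Prss23, C1qtnf7 and the retinal matrix proteoglycan Impg1.

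The transforming growth factor beta ligands differed in how restricted they were. Tgfb2 was at 33.2, 29.6 and 24.2 FPKM in c-MYC/FOXO1AAA, at 0.266, 0.107 and 0.125 in c-MYC and at 0.130, 0.0913, 0.235 and 0.256 in NL, and Tgfb3 was at 6.08, 7.31 and 6.06, 0.322, 0.126 and 0.290 and 0.562, 0.251, 0.212 and 0.494 FPKM respectively. For both, the lowest c-MYC/FOXO1AAA library was more than 10-fold above the highest control library. Tgfb1, which is no member because it is expressed in all groups, was at 5.01 ± 0.319 FPKM (SD, n = 4) in NL, 6.17 ± 0.578 (n = 3) in c-MYC and 25.2 ± 1.96 (n = 3) in c-MYC/FOXO1AAA, and was called higher than in c-MYC by limma (log2 fold change 2.02, SE 0.12, adjusted p = 2.6e-06). All ligands of this trio were therefore highest in c-MYC/FOXO1AAA, but Tgfb1 alone was clearly present in the controls. In the thrombospondin family, Thbs1 was at 29.9, 22.9 and 23.4 FPKM in c-MYC/FOXO1AAA against 0.335, 0.145 and 0.438 in c-MYC. Its relatives in c-MYC/FOXO1AAA and c-MYC were at 1.20 ± 0.610 and 0.169 ± 0.0694 FPKM for Thbs2, 6.03 ± 1.25 and 0.283 ± 0.170 for Thbs3 and 3.25 ± 1.83 and 0.0227 ± 0.0260 for Thbs4.

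Transcription and chromatin factors accounted for 22 members with a median of 15.3 FPKM. Olig2, the basic helix-loop-helix factor of oligodendrocyte and motor neuron precursors, was at 70.4, 78 and 48.3 FPKM in c-MYC/FOXO1AAA with 0 reads in all 7 controls, at least 3167-fold above c-MYC. Its neighbor and relative Olig1 was at 165 ± 17.8 FPKM in c-MYC/FOXO1AAA, 0.00839 ± 0.0145 in c-MYC and 1.05 ± 0.379 in NL. The rule excludes its symbol, but Olig1 also exceeded the lower limit in NL 2 (1.57 FPKM) and NL 4 (1.08 FPKM). Olig1 therefore had a measurable level in normal liver, where Olig2 had none. Vgll3, a cofactor of TEAD transcription factors, was at 81.3, 42.6 and 59.7 FPKM, against 0.177, 0.0863 and 0.177 in c-MYC and 0.147, 0.115, 0.111 and 0.181 in NL.

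Mef2c, a MADS-box factor of muscle, neurons and neural crest, was at 59.99, 60.2 and 56.7 FPKM in c-MYC/FOXO1AAA, at 0.647, 0.668 and 0.913 in c-MYC and at 0.728, 0.741, 0.429 and 0.545 in NL. It varied least of all 140 members, with a coefficient of variation of 3.38% over the 3 c-MYC/FOXO1AAA libraries. Among its relatives, Mef2a was at 7.14 ± 0.710, 3.38 ± 0.432 and 9.69 ± 1.02 FPKM in NL, c-MYC and c-MYC/FOXO1AAA and was called higher in the tumors with FOXO1AAA than in c-MYC (log2 fold change 1.52, SE 0.15, adjusted p = 2.7e-04). Mef2d had its highest mean in c-MYC, at 34.9 ± 5.50 FPKM against 22.7 ± 4.59 in c-MYC/FOXO1AAA, a difference that did not pass the limma test (log2 fold change -0.63, SE 0.18, adjusted p = 0.855). Mef2b was at 0.964 ± 0.205 FPKM in c-MYC and 0.297 ± 0.180 in c-MYC/FOXO1AAA. In this family Mef2c alone met the rule.

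Osr2, a zinc finger factor of palate and limb, was at 39.4, 39.8 and 22.4 FPKM with 0 reads in all controls, at least 859-fold above c-MYC. Tbx1, a T-box factor of the pharyngeal arches, was at 18.8, 34.6 and 27.9 FPKM, at least 1282-fold above c-MYC, with 2 reads in NL. Zic5 and Zic2, zinc finger factors of the neural plate, were at 23.1, 16.3 and 16.6 and at 16.4, 15.9 and 10.2 FPKM. Neither had a read in NL, and in c-MYC they had 14 and 1. Their relative Zic1 was at 3.71 ± 0.327 FPKM, below the upper limit, and had 0 reads in every control. Further developmental factors were Foxd1 at 17.3, 13 and 13.6 FPKM, Msx1 at 21.5, 19.3 and 9.46, Twist1 at 9.10, 7.90 and 14.2 and Trps1 at 20.6, 28 and 20.1.

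Other members of this class are known from blood and endocrine cells or act on chromatin. Ebf1, a factor that specifies B cells, was at 19.9, 17.8 and 16.8 FPKM, and Satb1, which organizes chromatin in T cells, was at 19.9, 19.2 and 15.8. Klf5 was at 19.2, 15.5 and 13.1 FPKM, the beta cell factor Mafa at 6.52, 10.5 and 6.20 and the T cell leukemia gene Lmo1 at 8.71, 10.9 and 5.21. The fetal chromatin protein Hmga2 was at 8.99, 7.11 and 7.88 FPKM, with 1 read in c-MYC and 4 in NL. The histone variant gene H2afy2, the Notch coactivator Maml2, Creb5 and Zfp503 had means between 6.21 and 13.2 FPKM. The immediate early gene Fos was the least restricted member: it was at 5.55, 5.05 and 6.29 FPKM in c-MYC/FOXO1AAA, 0.439, 0.579 and 0.878 in c-MYC and 0.859, 0.352, 0.389 and 0.423 in NL. Its highest NL library was 0.859 FPKM, so that the gap to the lowest c-MYC/FOXO1AAA library was narrow compared with that of Olig2.

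Muscle genes formed 15 members with a median of 10.3 FPKM, even though the rule had set aside myosins, troponins and skeletal actins. Their summed level was 177, 184 and 204 FPKM in c-MYC/FOXO1AAA 1, 2 and 3. The ubiquitin ligases of the MuRF family were represented by Trim55 and Trim63. Trim55 was at 36.8, 24.7 and 49.4 FPKM with 0 reads in all controls, at least 330.3-fold above c-MYC. Trim63, the atrophy ligase MuRF1 and a known FOXO1 target, was at 11.8, 9.32 and 13.5 FPKM, with 2 reads in c-MYC and 0 in NL. Calcium handling was represented by Atp2a1, the calcium pump of the sarcoplasmic reticulum, at 6.53, 5.55 and 5.98 FPKM, and by its micropeptide inhibitors Mrln at 16.2, 13.5 and 26.1 and Sln at 9.73, 12.2 and 7.62 FPKM. Sln had 0 reads in all controls and was at least 248-fold above c-MYC. The widely expressed pump Atp2a2 was at 50.6 ± 4.12, 70.5 ± 8.96 and 83.4 ± 8.25 FPKM in NL, c-MYC and c-MYC/FOXO1AAA and was not called (log2 fold change 0.25, SE 0.12, adjusted p = 1.0). The remaining pump of the family, Atp2a3, was at 0.520 ± 0.160, 0.426 ± 0.0871 and 2.77 ± 0.856 FPKM, higher in every c-MYC/FOXO1AAA library than in any other but below the upper limit of the rule.

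Calcium channel and junction genes were also among the muscle members. Cacng1, a subunit of the skeletal muscle calcium channel, was at 16.1, 12.2 and 18.7 FPKM, with 1 read in c-MYC and 6 in NL. Rrad, a small GTPase that limits calcium channels, was at 10.5, 19.4 and 12.9 FPKM, and Jsrp1 of the sarcoplasmic reticulum junction at 9.31, 9.43 and 12.1 FPKM. The sarcomere cap protein Tcap was at 11.3, 20.9 and 15.2 FPKM and had 3 reads in each of the control groups. Sspn, of the dystrophin complex, was at 8.07, 7.42 and 6.14 FPKM and had 23 reads in c-MYC and 81 in NL. Apobec2, Synpo2l, Pgm5 and the filamin Flnc lay between 5.65 and 11.3 FPKM.

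Receptors and signaling proteins were the most numerous class, with 26 members and a median of 12.6 FPKM. Fgd5, a guanine nucleotide exchange factor known from endothelium, was at 44.2, 30.3 and 28.7 FPKM, against 0.494, 0.312 and 0.707 in c-MYC and 0.660, 0.925, 0.783 and 0.773 in NL. Plxdc2, a membrane receptor, was at 46.8, 23 and 31.2 FPKM, against 0.279, 0.223 and 0.228 and 0.591, 0.643, 0.334 and 0.727. Control levels of Fgd5 came close to the lower limit, and those of Plxdc2 did not. Other receptors were the sphingosine receptor S1pr4 at 31.8, 23.5 and 17.9 FPKM, Tnfrsf26 at 31.6, 18.3 and 21.7, thrombomodulin (Thbd) at 34.1, 14.7 and 22.4 and the sortilin family receptor Sorcs2 at 24.7, 26.8 and 9.33. Igf1r, the receptor for insulin-like growth factors upstream of AKT, was at 15.8, 14.5 and 12.8 FPKM in c-MYC/FOXO1AAA, at 0.143, 0.0605 and 0.224 in c-MYC and at 0.278, 0.195, 0.153 and 0.195 in NL.

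Heterotrimeric G protein subunits illustrated restriction within a family. Gnao1, the neuronal alpha-o subunit, was at 27.1, 31 and 17.1 FPKM with 3 reads in c-MYC and 14 in NL. Gnai1, an inhibitory subunit, was at 19.3, 17.3 and 13.7 FPKM, against 0.209, 0.0847 and 0.139 in c-MYC and 0.260, 0.271, 0.229 and 0.0711 in NL. Their relatives Gnai2 and Gnai3 were expressed throughout. Gnai2 was at 66.6 ± 7.46, 58.8 ± 1.92 and 95.1 ± 7.76 FPKM in NL, c-MYC and c-MYC/FOXO1AAA, and Gnai3 at 39.3 ± 1.87, 36 ± 3.20 and 31.4 ± 2.52. Neither was called by limma between the tumor groups (adjusted p = 0.454 and 1.0), although every c-MYC/FOXO1AAA library of Gnai2 lay above every c-MYC library. Other members that act on cyclic nucleotides or G proteins were Adcy2, an adenylyl cyclase, at 14, 13.1 and 7.86 FPKM, the phosphodiesterase Pde5a at 11.1, 9.39 and 7.97 and the G protein modulator Gpsm1 at 8.82, 8.84 and 7.23.

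The Ras-like members Rasd2 and Rasd1 had their highest values in c-MYC/FOXO1AAA 2. Rasd2 was at 12.4, 27.5 and 8.85 FPKM and Rasd1 at 7.91, 10.1 and 5.70. The calcium sensor Ncs1 was at 15.1, 15.6 and 13 FPKM, the phospholipase Plcd3 at 8.06, 9.14 and 7.17 and the MAP kinase phosphatase Dusp5 at 11.9, 8.60 and 8.04. The phosphatase Ptprr was at 9.77, 7.35 and 5.77 FPKM with 0 control reads, at least 311-fold above c-MYC. Shisa3 had 0 reads in c-MYC, 4 in NL and 11.5, 5.47 and 6.50 FPKM in c-MYC/FOXO1AAA. The others were Asb4, Neurl1a, Gpr176, Phactr1, Cd109, Antxr1 and the Hedgehog coreceptor Boc, with means between 6.55 and 18.1 FPKM.

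Neural, junction and cytoskeleton genes numbered 14, with a median of 9.69 FPKM. Chodl, a membrane lectin known from motor neurons and muscle, was at 67, 21.3 and 43 FPKM with 0 reads in all controls, at least 1375-fold above c-MYC. It was also among the members that varied most, with its highest library 3.14-fold above its lowest. Cplx2, a regulator of synaptic vesicle fusion, was at 25.4, 23 and 16.5 FPKM, against 0.243, 0.118 and 0.265 in c-MYC and 0.257, 0.280, 0.166 and 0.384 in NL. Dlg4, the postsynaptic scaffold PSD-95, was at 10.6, 9.65 and 8.04 FPKM, the neural RNA-binding protein Msi1 at 9.83, 8.39 and 7.19 and the microtubule protein Map1b at 8.41, 7.31 and 7.94. The adhesion protein Mdga2 was at 8.49, 6.45 and 6.71 FPKM with 0 control reads. Map7d2, Krt17, Clip3, Gjc1, Limch1, Mical1, Pard6g and Aif1l completed this class with means between 7.71 and 13.5 FPKM.

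Lymphocyte genes comprised 5 members with a median of 9.44 FPKM. Rag1 and Rag2 encode both subunits of the recombinase of antigen receptor genes. Rag1 was at 16.9, 10.8 and 8.28 FPKM and Rag2 at 14.8, 11.6 and 11.2 FPKM in c-MYC/FOXO1AAA, and neither had a read in any of the 7 controls, which put them at least 1486-fold and 432-fold above c-MYC. The B cell receptor component Cd79a was at 11.8, 9.58 and 6.89 FPKM, with 11 reads in c-MYC and 18 in NL. Cytip was at 8.34, 7.98 and 5.22 FPKM and Slfn9 at 7.20, 5.92 and 6.37. All 5 had their highest value in c-MYC/FOXO1AAA 1. The pan-leukocyte gene Ptprc was at 0.578, 1.17 and 1.29 FPKM in c-MYC/FOXO1AAA and 1.78, 1.75 and 1.97 in c-MYC and did not pass the limma test (log2 fold change -0.92, SE 0.31, adjusted p = 0.391). The remaining tested members of the lymphocyte and granulocyte list (Nkg7, S100a8 and S100a9) gave no call either, and the part of immune cells in these values was not tested further.

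Cell survival and growth genes numbered 7, with a median of 15.5 FPKM. Mlf1, a myeloid leukemia factor, was at 30.3, 60.7 and 53.6 FPKM, with 7 reads in c-MYC and 3 in NL. Rprm, which encodes a p53-induced inhibitor of the cell cycle, was at 25, 14.1 and 34.1 FPKM and at least 622-fold above c-MYC. The apoptosis inhibitor Bcl2 was at 14.1, 17.7 and 14.8 FPKM, against 0.288, 0.374 and 0.364 in c-MYC and 0.510, 0.187, 0.324 and 0.784 in NL. Its relatives Bcl2l1 and Mcl1 were expressed in all groups. Bcl2l1 was at 16.4 ± 2.45, 7.87 ± 1.24 and 13.8 ± 0.831 FPKM in NL, c-MYC and c-MYC/FOXO1AAA, and Mcl1 at 195 ± 10.5, 244 ± 8.72 and 158 ± 3.91. Neither was called between the tumor groups by limma, which tested against a 1.5-fold change (adjusted p = 0.218 and 0.718). The tumor groups were still fully separated, with every c-MYC/FOXO1AAA library above c-MYC for Bcl2l1 and below c-MYC for Mcl1.

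Rragb, a GTPase that carries amino acid signals to mTORC1, was at 5.50, 6.24 and 5.67 FPKM in c-MYC/FOXO1AAA, 0.0965, 0.776 and 0.145 in c-MYC and 0, 0.0470, 0 and 0 in NL. Rraga, which shares its role, was at 26.7 ± 2.22, 28.9 ± 3.73 and 31.8 ± 1.93 FPKM in NL, c-MYC and c-MYC/FOXO1AAA, and Rragc at 20.6 ± 0.876, 21 ± 1.81 and 21.8 ± 0.823. Neither of these passed the limma test between the tumor groups (adjusted p = 1.0 and 1.0). Rragd was at 0.318 ± 0.0615, 3.49 ± 1.86 and 8.90 ± 0.591 FPKM and was called higher between the tumor groups, with its highest level in c-MYC/FOXO1AAA (log2 fold change 1.48, SE 0.35, adjusted p = 0.0487). Igf2bp2, an RNA-binding protein, was at 6.36, 8.88 and 7.72 FPKM, the engulfment adaptor Gulp1 at 21.7, 12.8 and 16.4 and the imprinted growth suppressor Ndn at 14.9, 17.8 and 9.21.

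The 8 enzymes of glycosylation, lipid metabolism and the secretory pathway had a median of 7.97 FPKM. The mucin-type glycosyltransferase Galnt15 was at 57.7, 44 and 39.5 FPKM, against 0.362, 0.403 and 0.680 in c-MYC and 0.215, 0.101, 0.194 and 0.264 in NL, and Galnt12 of the same family was at 8.27, 18.7 and 5.97. Galnt12 had its highest value in c-MYC/FOXO1AAA 2, and Galnt15 in c-MYC/FOXO1AAA 1. The sialyltransferase St6galnac5 was at 11.9, 13.1 and 7.86 FPKM and the fatty acid elongase Elovl4 at 9.32, 9.16 and 5.67. Both had 0 control reads, which placed them at least 1186-fold and 461-fold above c-MYC. Osbp2, Tram1l1, Sfxn3 and Kdelr3 lay between 5.60 and 7.89 FPKM.

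The remaining 25 members had other or unknown functions or were non-coding, with a median of 10.3 FPKM. Fam189a2 was at 47.4, 50.3 and 32.9 FPKM, against 0.193, 0.167 and 0.278 in c-MYC and 0.711, 0.416, 0.402 and 0.394 in NL. Gm8369 was at 33.5, 27.9 and 36.6 FPKM, with 3 reads in c-MYC and 0 in NL. Gm31294 was at 32.1, 12.4 and 19.95 FPKM with 0 control reads, at least 53.5-fold above c-MYC. Gm31294 in c-MYC/FOXO1AAA 1 exceeded c-MYC/FOXO1AAA 2 by more than 2-fold. Among the others, the scavenger receptor Scara3 was at 22.2, 20.3 and 14.7 FPKM, the inflammasome gene family member Nlrp10 at 19.9, 11.3 and 12.9, the tetraspanin Tspan8 at 8.67, 8.36 and 11.6 and annexin A8 (Anxa8) at 8.18, 12.5 and 5.40. The rest, in order of level, were Plekhh2, Emb, Armcx2, 4930425P05Rik, Fam171a2, Faxc, 5430431A17Rik, Nccrp1, AI467606, Prune2, Prss50, Ccdc136, Trmt9b, Cyyr1, Gm9050, Ahi1, Tceal3 and 2810429I04Rik, with means between 5.81 and 19.6 FPKM.

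**Figure D2:**
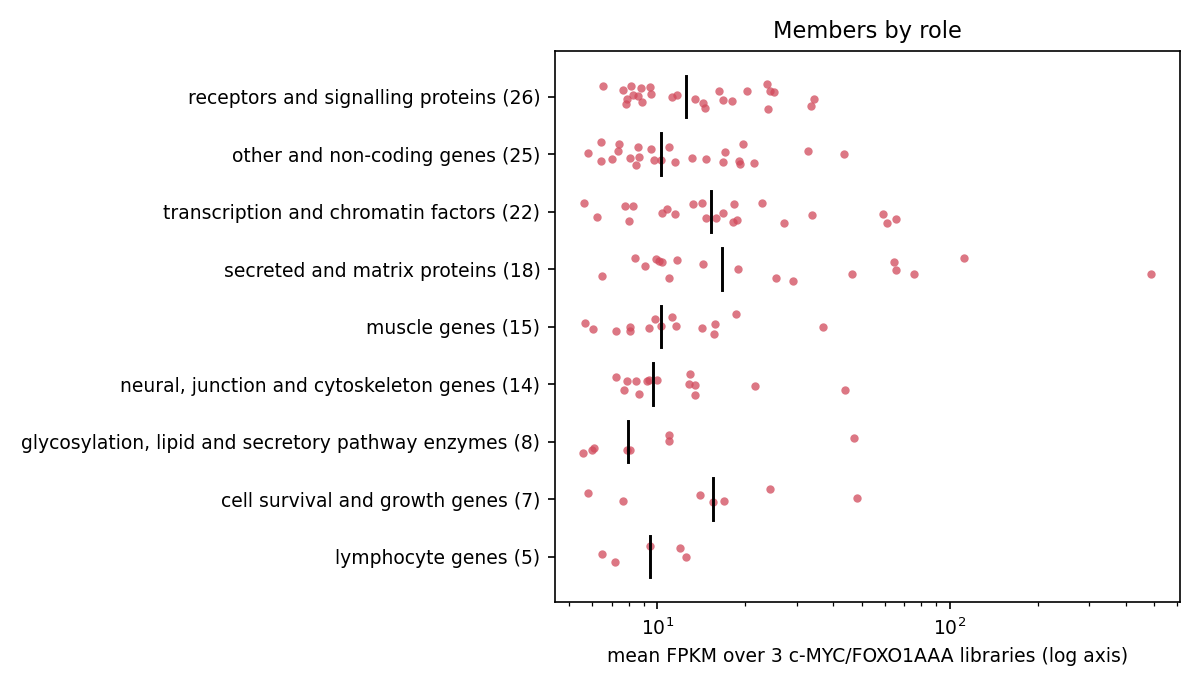
Mean FPKM over the 3 c-MYC/FOXO1AAA libraries (log axis) of all 140 members, each point a gene, grouped by role with the number of members in parentheses and the class median as a black bar. Secreted and matrix proteins reach highest, from 6.48 to 489 FPKM, and class medians lie between 7.97 and 16.6 FPKM.

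Several members lay next to each other in the genome (GRCm38, positions of GENCODE release M21 matched by symbol). Rag2 and Rag1 lie on chromosome 2 in opposite directions with 5753 bp between them (chr2:101624718-101632529 and chr2:101638282-101649501), and no other gene of the table lies between them. Ccdc136 and Flnc on chromosome 6 are 6262 bp apart, 4930425P05Rik and Galnt15 on chromosome 14 are 15987 bp apart, and Cytl1 and Msx1 on chromosome 5 are 80665 bp apart, in each case with no listed gene between. Zic5 and Zic2 on chromosome 14 are separated by 9758 bp that hold 1 further listed gene. The same held at longer range for Tspan8 and Ptprr on chromosome 10, 168320 bp apart with no listed gene between, and for Thbs1 and Gpr176 on chromosome 2, 149977 bp apart with 1. Fam171a2 and Gjc1, Gjc1 and Plcd3, and Nlrp10 and Lmo1 had 5, 6 and 3 listed genes between them. Whether members lie together more often than other genes was not tested. Where reads of adjacent genes overlap, the counting cannot separate them, and the strand setting of the counting is not given in the sources used here.

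By chromosome, 11 members (7.86%) lay on chromosome 14 and 10 (7.14%) on chromosome 13, which hold 3.54% and 3.96% of all listed genes. Chromosome 1 held 3 members (2.14%) and 6.04% of listed genes. The chromosome 14 members, which belong to 5 role classes, included Rnase1, Galnt15, 4930425P05Rik, Zic5, Zic2, Klf5, Scara3, Synpo2l, Anxa8 and Zfp503. These shares are a description and were not tested.

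Members varied more between the 3 c-MYC/FOXO1AAA libraries than other genes expressed in the group. The median coefficient of variation was 22%, compared with 11% for the 8536 genes averaging 5 FPKM or more in the group. A more than 2-fold spread was seen in 20 members (14.3%) and in 5.0% of those 8536 genes. The widest was 3.75-fold, for Krt17 at 10.2, 23.8 and 6.34 FPKM. Rasd2, Galnt12, Chodl and Nccrp1 also had spreads of between 3.11-fold and 3.17-fold.

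The libraries did not share the high values evenly. The highest value was in c-MYC/FOXO1AAA 1 for 68 members (48.6%), in c-MYC/FOXO1AAA 2 for 53 (37.9%) and in c-MYC/FOXO1AAA 3 for 19 (13.6%), whereas the 8536 genes divided into 32.5%, 35.0% and 32.5%. The 3 libraries had 16402646, 20547746 and 13477131 reads, and FPKM are scaled for that depth. By role, c-MYC/FOXO1AAA 3 held the highest value for 6 of 15 muscle members (7 in c-MYC/FOXO1AAA 2 and 2 in c-MYC/FOXO1AAA 1) and for 4 of 18 secreted members. It did so for 1 of 14 neural, junction and cytoskeleton members and 1 of 26 receptors and signaling proteins. Trim55, Mrln, Cacng1, Trim63 and Jsrp1 were among the muscle members highest in c-MYC/FOXO1AAA 3, whereas Sln, Tcap and Rrad were highest in c-MYC/FOXO1AAA 2 and Atp2a1 and Sspn in c-MYC/FOXO1AAA 1. All 5 lymphocyte members were highest in c-MYC/FOXO1AAA 1. These counts are a description of 3 libraries and were not tested.

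**Figure D3:**
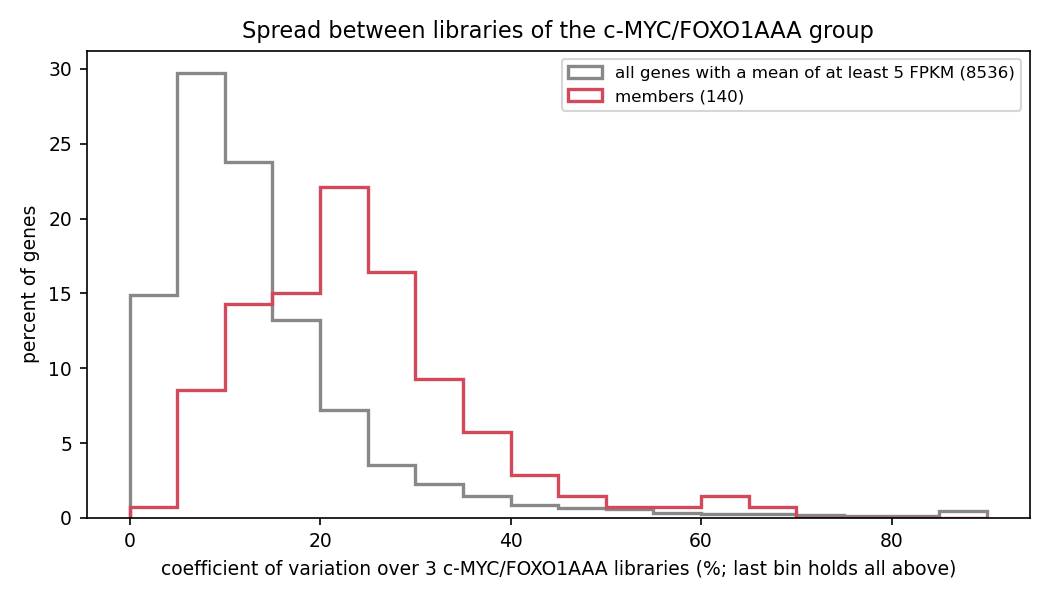
Percent of genes (vertical axis) by coefficient of variation over the 3 c-MYC/FOXO1AAA libraries (horizontal axis, bins of 5%), for the 140 members and for the 8536 genes averaging 5 FPKM or more. The members are shifted to the right, with a median of 22% against 11%.

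Between c-MYC and NL the rule set no direction, but it held every library of both under 1 FPKM, and all 140 members passed the filter on low values through their c-MYC/FOXO1AAA libraries. The differences between these groups are therefore a description, and nothing about the members is read from the counts. The c-MYC libraries lay above all NL libraries in 19 members (13.6%) and below all of them in 22 (15.7%), beside 39.0% and 34.9% of all genes, and they overlapped in 99. In the limma fit over 14017 genes, 11 members (7.86%) lay past the threshold as higher in c-MYC and 17 (12.1%) as lower, beside 24.5% and 23.6% of all genes. The median log2 difference of the members was 0 and that of all genes 0.08.

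These values rest on few reads and moved with the processing. With 1 FPKM added before the logarithm 0 members were past the threshold and 0 had an unadjusted p under 0.05 in limma, and with 0.1 FPKM added 13 were past it. Scaling each library to the same FPKM total, which raised the all-gene median from 0.08 to 0.97, placed 26 members past it as higher and 6 as lower.

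Among members higher in c-MYC, Aif1l, an actin-bundling protein related to allograft inflammatory factor, was at 0.385, 0.817 and 0.838 FPKM in c-MYC and 0.0290, 0, 0 and 0 in NL, with a change of 3.96 on the log2 scale (SE 0.36). It had 118 reads in c-MYC and 1 in NL, a pooled ratio of 83.3 (95% interval 14.9 to 3289). All c-MYC libraries lay well above all NL libraries. The membrane protein Cd109 was at 0.149, 0.0634 and 0.353 FPKM against 0.0463, 0, 0.0175 and 0, with a change of 2.45 on the log2 scale (SE 0.55), and c-MYC 3 held most of its reads. Jsrp1 was at 0.685, 0.222 and 0.513 FPKM against 0 reads in NL, at least 5.88-fold higher. Both groups of libraries were fully separated in these genes.

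Rragb, described above, was at 0.776 FPKM in c-MYC 2 and at 0.0965 and 0.145 in the other c-MYC libraries, with a change of 2.24 on the log2 scale (SE 0.53). Of its 43 reads in c-MYC, 33 came from c-MYC 2, and the group mean of 0.339 FPKM became 0.121 without that library. The muscle gene Synpo2l was at 0.174, 0.350 and 0.223 FPKM against 0.0412, 0, 0.0233 and 0.127 in NL, with a change of 2.12 on the log2 scale (SE 0.51). The others past the threshold as higher were Ebf1, Gpr176, Thbs1, Zic5, Krt17 and Mical1, with log2 fold changes between 1.41 and 2.06. Gpr176, Zic5 and Krt17 had 0 reads in NL, and 18 of the 24 Krt17 reads in c-MYC came from c-MYC 3.

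Among members lower in c-MYC, Scara3 was at 0.503, 0.324, 0.484 and 0.712 FPKM in NL and 0, 0 and 0.0151 in c-MYC, with a change of -3.80 on the log2 scale (SE 0.31). It had 71 reads in NL and 1 in c-MYC, a ratio of 101 (95% interval 18.1 to 3974). Ogn was at 0.811, 0.661, 0.359 and 0.912 FPKM in NL and 0.0425, 0 and 0.170 in c-MYC, with a change of -2.86 on the log2 scale (SE 0.50). NL exceeded c-MYC in every library for both. Spock2, whose values are given above, had a change of -2.57 on the log2 scale (SE 0.55), Ndn had a change of -2.34 on the log2 scale (SE 0.52) and Thsd4 had a change of -2.13 on the log2 scale (SE 0.35).

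The other 12 past the threshold as lower were Trmt9b, Asb4, Sspn, C1qtnf7, Gnao1, Igf2bp2, Antxr1, Pgm5, Osbp2, Anxa8, Zfp503 and Mmp2, with log2 fold changes between -2.11 and -1.32. In c-MYC/FOXO1AAA, members past the threshold as lower in c-MYC ranged from 6.21 to 65.5 FPKM and those past it as higher from 5.80 to 25.4 FPKM. That both kinds lay above either control was fixed by the rule.

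**Figure D4:**
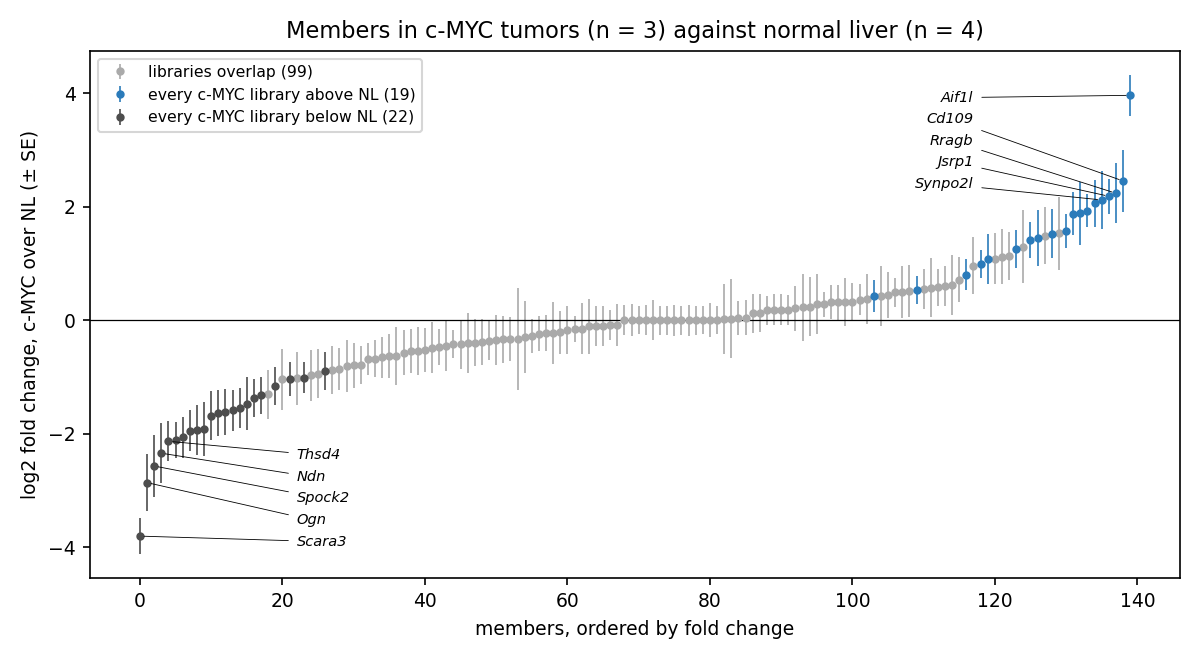
Log2 difference of c-MYC from NL (vertical axis, bars are SE) for the 140 members in order of size (horizontal axis), marked by whether the c-MYC libraries lay above every NL library (19), below every NL library (22) or overlapped with them (99). Separated members sit at both ends, from Scara3 at -3.80 to Aif1l at 3.96.

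Genes known to mark the tissues named by the members were examined outside the membership in c-MYC/FOXO1AAA against c-MYC. A gene that entered the fit through the c-MYC/FOXO1AAA libraries alone had its direction largely set by the filter on low values. Counts of calls are therefore given here only over genes that passed that filter without these libraries. This choice was made after the data were seen. Of 12929 such genes 11.0% were called higher and 13.8% lower, with a median of -0.04 on the log2 scale. Over all 14017 genes 15.9% were called higher and 12.7% lower.

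Summed muscle gene levels were higher in c-MYC/FOXO1AAA, but most of the list was nearly silent elsewhere. The summed level of skeletal muscle genes that are no members was 7.61 to 10.1 FPKM in NL, 49.8 to 82.5 in c-MYC and 345 to 445 in c-MYC/FOXO1AAA. This sum includes Tnnt3, Actc1 and Myog, which met both limits and were set aside by symbol, so that the rule largely set its direction. Tnnt3 alone was at 137, 196 and 148 FPKM in c-MYC/FOXO1AAA. In c-MYC most of the sum was Tnnc1, at 54.7, 69.8 and 39.9 FPKM. Of the 22 in the fit, 19 entered through c-MYC/FOXO1AAA alone and are described without a test. They included the troponin Tnnt3 at 160.1 ± 31.4 FPKM against 0.265 ± 0.243 in c-MYC and the myogenic factor Myog at 25.8 ± 8.96 FPKM with 0 reads in c-MYC, both of which met the limits and were set aside by symbol. Of the other 3, the intermediate filament gene Des rose from 0.877 ± 0.350 to 62.7 ± 6.02 FPKM (log2 fold change 6.18, SE 0.30, adjusted p = 1.3e-07). The slow and cardiac troponin Tnnc1 fell from 54.8 ± 14.9 to 5.27 ± 1.06 FPKM (log2 fold change -3.32, SE 0.25, adjusted p = 5.5e-06). Tnni1 was at 11.3 ± 9.69 and 30.4 ± 4.94 FPKM and did not pass the test (log2 fold change 1.82, SE 0.95, adjusted p = 0.329).

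Connective tissue lists gave calls mainly among stellate cell and fibroblast genes. Of 14 stellate cell and fibroblast genes, 7 were called higher and 0 lower with a median of 1.83, led by Reln (log2 fold change 6.16, SE 0.52, adjusted p = 6.5e-06), Dcn (log2 fold change 5.90, SE 0.44, adjusted p = 3.9e-06) and Pdgfra (log2 fold change 4.86, SE 0.56, adjusted p = 7.9e-05). Against NL the list was mixed. In c-MYC/FOXO1AAA, Dcn, Pdgfra, Pdgfrb, Col1a1, Col1a2 and Col3a1 lay above every NL library. Reln, Lum and Postn overlapped with NL, and Lrat, Rgs5, Ngfr, Hand2 and Thy1 lay below every NL library. Rgs5 had a lower mean than in c-MYC as well, at 1.49 ± 0.267 FPKM against 4.04 ± 2.32. Of 4 limb and paraxial mesenchyme genes 3 entered through c-MYC/FOXO1AAA alone, among them Tbx15, which met the limits and was set aside by symbol, at 57.9 ± 7.44 FPKM, and Prrx1 at 6.19 ± 2.02. The other, Tcf21, was not called. Of 3 smooth muscle genes 1 was higher (Acta2, log2 fold change 4.20, SE 0.43, adjusted p = 4.7e-05) and 0 lower, and of 2 cartilage genes 0 were higher and 1 lower. The 2 mesothelial genes in the fit entered through c-MYC/FOXO1AAA alone. The summed level of the fibroblast list was 105 to 130 FPKM in NL, 16.8 to 54.2 in c-MYC and 344 to 414 in c-MYC/FOXO1AAA. Dcn was the largest part of that sum in NL and c-MYC/FOXO1AAA. It was at 61.9 to 83.0 FPKM in NL and at 312, 178 and 218 in c-MYC/FOXO1AAA. The part of other cell types in the members' levels was not tested.

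Neural lists gave little beyond the members. Only 1 of 13 neuronal markers was listed, and it was called higher (Syt1, with 0 reads in c-MYC and a mean of 0.858 FPKM in c-MYC/FOXO1AAA against 5.04 in NL). Of 3 tested glial genes other than Olig2, 0 were higher and 1 lower. The neuropeptide processing genes Cpe and Pomc entered through c-MYC/FOXO1AAA alone, and Cpe, which trims the peptides of prohormones such as proenkephalin, was at 46.1 ± 2.50 FPKM against 0.0765 ± 0.0514 in c-MYC. None of 9 pluripotency and germ line genes was listed in the table.

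Of 21 FOXO1 target genes besides Trim63, 11 were called higher and 4 lower, with a median of 0.98, a list that includes genes the study read on these samples and is no independent evidence of direction. Pdk4, the kinase that blocks pyruvate oxidation, rose from 0.0469 ± 0.0563 to 22.3 ± 2.38 FPKM (log2 fold change 8.35, SE 0.45, adjusted p = 2.6e-07). Gadd45g (log2 fold change 5.64, SE 0.46, adjusted p = 7.5e-06) rose as well, and the atrophy ligase Fbxo32, which entered through c-MYC/FOXO1AAA alone, was at 0.264 ± 0.0881 and 4.94 ± 0.319 FPKM. Against NL these genes differed. Gadd45g was at 43.1 ± 7.66 FPKM in c-MYC/FOXO1AAA and 45.1 ± 25.8 in NL, whereas Pdk4 and Fbxo32 were at 1.23 ± 0.303 and 0.672 ± 0.302 FPKM in NL. Of 9 Notch pathway genes, 3 were higher and 1 lower with a median of 0.80, including Lfng (log2 fold change 3.70, SE 0.35, adjusted p = 2.2e-05), while Notch1 fell (log2 fold change -1.24, SE 0.23, adjusted p = 0.0310). Among hepatocyte genes 2 of 12 were higher (Cyp2e1 and Tat) and 8 lower, with a median of -2.36 and Hnf4a (log2 fold change -3.81, SE 0.27, adjusted p = 3.1e-06) the most changed. Cyp2e1 and Tat were higher only than in c-MYC. Their means were 63.5 and 4.42 FPKM in c-MYC/FOXO1AAA, against 7752 and 811 in NL.

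The other lists showed few calls. In fetal liver genes 1 of 7 was higher and 2 lower, in cholangiocyte genes 1 of 4 was higher and 2 lower, in endothelial genes 1 of 7 was higher and 0 lower, and in macrophage genes 1 of 8 was higher and 1 lower. Neither the 3 erythroid nor the 4 lymphocyte and granulocyte genes gave a call. Of 4 retrotransposon-derived genes 2 were higher and 0 lower.

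Promoter sequence was examined because FOXO proteins bind the forkhead motif GTAAACA. RefSeq promoter windows of GRCm38.p6, 250 bases upstream of the start site, were matched by symbol for 100 of 140 members and for 11718 genes of the table. GTAAACA on either strand (TGTTTAC on the other) was in 6 member windows (6%), compared with 2.28% of all windows. The shorter core TAAACA was in 10 (10%) against 8.05%, and the longer GTAAACAA in 2 (2%) against 0.751%, both nested in or overlapping with the main motif. A match is a description of the letters in the window and not evidence of binding, and shares of 6 and 10 windows carry a large counting error. The 6 windows are shown because they are those that hold the motif, which is in capitals. All are written 5′ to 3′ on the strand of the gene, here the plus strand: Mlf1 at chr3:67373847-67374096, Trim63 at chr4:134314870-134315119, Maml2 at chr9:13297708-13297957, Tspan8 at chr10:115817034-115817283, Anxa8 at chr14:34085729-34085978 and Sfxn3 at chr19:45047326-45047575.
Mlf1: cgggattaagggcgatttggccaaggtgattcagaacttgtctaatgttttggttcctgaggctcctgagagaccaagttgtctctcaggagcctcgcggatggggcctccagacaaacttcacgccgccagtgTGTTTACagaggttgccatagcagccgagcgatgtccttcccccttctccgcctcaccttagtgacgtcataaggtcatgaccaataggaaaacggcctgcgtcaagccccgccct
Trim63: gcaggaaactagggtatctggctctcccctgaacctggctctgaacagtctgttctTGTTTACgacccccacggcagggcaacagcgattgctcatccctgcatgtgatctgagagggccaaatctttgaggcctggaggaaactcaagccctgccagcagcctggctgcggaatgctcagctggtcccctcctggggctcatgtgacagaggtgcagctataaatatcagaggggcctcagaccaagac
Maml2: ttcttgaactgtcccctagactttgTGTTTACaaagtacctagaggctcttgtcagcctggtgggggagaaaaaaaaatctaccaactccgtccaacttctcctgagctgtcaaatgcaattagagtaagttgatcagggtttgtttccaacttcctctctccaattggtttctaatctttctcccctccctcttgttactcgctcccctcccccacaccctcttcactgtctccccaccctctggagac
Tspan8: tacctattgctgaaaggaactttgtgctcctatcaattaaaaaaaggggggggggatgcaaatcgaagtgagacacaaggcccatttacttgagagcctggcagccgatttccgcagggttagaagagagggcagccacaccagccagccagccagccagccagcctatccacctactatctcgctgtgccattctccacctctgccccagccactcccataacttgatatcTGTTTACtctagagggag
Anxa8: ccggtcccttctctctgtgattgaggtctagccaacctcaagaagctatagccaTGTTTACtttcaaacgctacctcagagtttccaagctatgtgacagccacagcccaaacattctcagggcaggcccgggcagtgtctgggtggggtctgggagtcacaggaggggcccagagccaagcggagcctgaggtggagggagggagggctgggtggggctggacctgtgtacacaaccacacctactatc
Sfxn3: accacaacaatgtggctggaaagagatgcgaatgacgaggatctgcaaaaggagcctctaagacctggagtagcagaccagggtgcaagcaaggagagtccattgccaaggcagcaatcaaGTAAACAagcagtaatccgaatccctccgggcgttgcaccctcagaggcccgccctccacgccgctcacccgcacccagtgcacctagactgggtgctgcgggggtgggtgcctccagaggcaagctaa

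In Mlf1, Trim63, Maml2, Tspan8 and Anxa8 the motif reads TGTTTAC along the gene and begins 116, 194, 225, 18 and 196 bases before the RefSeq start site. In GENCODE M21 the Tspan8 gene begins at chr10:115816832, so that its window and motif lie inside that gene, upstream of the RefSeq start only. In Sfxn3 the motif reads GTAAACA and begins 129 bases before the RefSeq start. The 6 genes fell into different role classes (survival, muscle, transcription, other and secretory pathway) and ranged from 5.98 FPKM for Sfxn3 to 48.2 FPKM for Mlf1. Besides Trim63, none of them is among the target genes listed for FOXO1 here.

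Windows of members had fewer CpG dinucleotides than those of other genes. The median was 10.5 CpG per 250 bases, against 15 for all 11718 genes, at nearly equal GC content (58.4% and 59.2%). With a CpG-rich window defined by at least 55% GC and a ratio of observed to expected CpG of at least 0.6, 41% of member windows were CpG-rich, compared with 51.3% of all windows and 61.1% of the windows of genes that met the upper limit in c-MYC/FOXO1AAA. TATAAA was in 13% of member windows against 7.19% of all. E-box shares were close to the background: CACGTG, the letters bound by MYC, was in 7% against 8.22%, CAGCTG, favored by myogenic factors, in 13% against 11.9%, and any CANNTG, which includes both, in 59% against 58.1%.

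Levels of some members depend on the transcript length that the authors used. The length recovered from the values equaled the longest annotated transcript for 83 members and was under 50% of it for 28. Creb5 was scaled to 614 bp of 7917, Trps1 to 887 of 9859 and Trim55 to 506 of 2595. With the longest transcript as length, an alternative chosen after the data were seen, 114 of the 140 members still reached 5 FPKM in all 3 c-MYC/FOXO1AAA libraries. Trim55, Gm8369, Trps1, Sorcs2 and Zic5 were the highest of the 26 that did not. Read counts, including the 0 reads of 14 members in the controls, do not depend on this length.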

How the data were processed

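RNA sequencing of mouse liver was examined in NL (n = 4), c-MYC (n = 3) and c-MYC/FOXO1AAA (n = 3), each sample placed by its title. The deposited values are log2 FPKM. The study states that the authors obtained reads per Ensembl gene, mapped the identifiers to symbols and used edgeR on the counts. In the deposited log2 values a prior count of 2, adjusted for library size, had been added before the logarithm, as the common floor of genes without reads showed. The submitters' processing notes name FastQC 0.11.7 and GRCm38, whereas the aligner and the counting tool are not given in the sources used here. Of 17069 entries, 372 hold no symbol or values and were left out.

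Whole reads were recovered per gene by trying lengths up to 130000 bp until all libraries gave whole numbers, which left a single length for 16688 of 16697 genes (99.9%), and 97.7% of 16623 genes matched to GENCODE M21 had the length of an annotated transcript. FPKM in the text are these reads without the prior count. Libraries held 13123719 to 20547746 reads, and the library sizes that the deposited FPKM imply were 0.649 to 0.684 times the reads in NL, 1.26 to 1.29 times in c-MYC and 1.45 to 1.50 times in c-MYC/FOXO1AAA. Ratios use reads pooled over a group, with a bound at 3 reads where a group has 0, and 95% exact Poisson intervals for the reads of the lower group. Bounds and intervals cover counting error only.

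Tests used the deposited log2 values, since they are not counts. The model of limma 3.58.1 (with statmod 1.5.0, under R 4.3.3) held 3 group means and used the 10 libraries together. Its treat test was 2-sided against a 1.5-fold change, with trend and robust estimation, over the 14017 genes that reached 1 FPKM in 3 or more libraries. Benjamini-Hochberg adjusted p under 0.05 over all of them made a call. On simulated data for c-MYC/FOXO1AAA versus c-MYC with 13464 genes tested, 3 of 80 genes changed by 1 on the log2 scale, 75 of 80 changed by 2 and 40 of 40 changed by 4 were called, and 0 unchanged genes. The simulation gave all groups the same mean per gene and a fixed spread, and changed only genes averaging at least 1 FPKM. Its shares therefore do not carry over to genes with few reads or a wider spread, such as the members. Replicate numbers did not pair the samples: deviations of libraries with the same number correlated between -0.040 and 0.027 over 9 pairs. Other steps used Python 3.11.15 with numpy 2.4.6, pandas 2.3.3, scipy 1.17.1 and matplotlib 3.10.9.

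The members, the marker and pathway lists and the tests were chosen with earlier results of these data known. Genes were named by rule: the 20 members with the highest mean, at most 5 members past the threshold each way in c-MYC versus NL, members that share a family or neighborhood, the 3 nearest each side of each limit, all others by name and range within roles assigned by hand, Foxo1, and at most 3 genes of a list. The values of 1 member are not reported here. Family relatives outside the membership and further members given with values were chosen after their values were seen. Alternatives covered the pseudocount, the filter, the scaling, the fold threshold, the limits of the rule, the samples fitted, the replicate block and each library left out.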

Additional observations from a re-analysis of the deposited data

Results flagged for a closer look

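Among NL libraries, 81 values with more than 3 reads in a library were examined for a library far from the other 3, and 6 passed Dixon's 95% limit, where chance alone flags about 1 in 20. Fam189a2 was at 0.711 FPKM in NL 1 and at 0.394 to 0.416 in the others. Fos was at 0.859 FPKM in NL 1, against 0.352 to 0.423, and Fam171a2 at 0.900 FPKM in NL 1, against 0.646 to 0.690. The receptor gene Tnfrsf26 was at 0.381 FPKM in NL 2, compared with 0.0364 to 0.0669 elsewhere. Galnt12 was at 0.244 FPKM in NL 4, compared with 0.0396 to 0.0464. Trmt9b was low in NL 3, at 0.393 FPKM against 0.611 to 0.645. NL 1 thus held 3 of the 6, and all of these values lie under the lower limit of the rule.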

How the results depend on the processing

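The rule gave 140 genes, 211 after scaling to the same FPKM total (131 shared), 60 with 10 FPKM as upper limit, 322 with 2 FPKM, 83 with 0.5 FPKM as lower limit, 130 with the longest transcript as length (114 shared, chosen after seeing the data) and 141 to 161 without a library. The 28 members past the threshold in c-MYC versus NL, which the rule limited in both groups, became 13 with 0.1 FPKM added, 0 with 1 FPKM added, 7 (of 44 tested) among genes averaging at least 5 FPKM over the 10 libraries, 45 with no fold threshold and 13 with a 2-fold threshold. Without a library they were 19 to 27, and 16 of 28 stayed past the threshold in each such fit. Those that fell short of it in at least 1 were Antxr1, Anxa8, C1qtnf7, Gnao1, Igf2bp2, Krt17, Mical1, Mmp2, Osbp2, Pgm5, Synpo2l and Zfp503. With the replicate block 23 members were past it (21 shared). Since all members passed the filter through c-MYC/FOXO1AAA, these member counts are a description and give no support for a difference. With the replicate block 81 list genes were called, and calls over all genes were 6407 for c-MYC versus NL, 7810 for c-MYC/FOXO1AAA versus NL and 3852 between the tumor groups. Unless stated, counts of list genes in this paragraph include those that entered through c-MYC/FOXO1AAA alone. The filter largely set the direction of such genes, so these counts are a description and give no support for a difference. The median difference from c-MYC (6.25) was 5.89 and 3.45 with 0.1 and 1 FPKM added, 6.60 at the same total, 5.94 after quantile normalization and 6.15 to 6.34 without a library. Over all genes averaging at least 5 FPKM, calls were 2273 between the tumor groups (43.3% higher, against 55.5%), 5196 for c-MYC/FOXO1AAA versus NL and 46 of list genes (87). Without list genes that passed the filter through c-MYC/FOXO1AAA alone, an alternative chosen after seeing the data, 53 of the 87 remained. No fold threshold gave 7688 between the tumor groups and 10432 for c-MYC versus NL. Without a library the ranges were 3593 to 4022 between the tumor groups, 7681 to 8161 for c-MYC/FOXO1AAA versus NL, 6385 to 6794 for c-MYC versus NL and 79 to 87 for list genes. At the same FPKM total, 78.2% of c-MYC versus NL calls were higher, against 51.0%, and 79.0% of those for c-MYC/FOXO1AAA versus NL, against 54.0%. Of members with at most 3 reads in each control (42), 14 had 0, and 69 had at most 10. Forkhead windows were 6, 10 with the shorter and 2 with the longer motif. No call of a named gene reversed, but only 37 of 76 single-gene results kept the same call in every alternative. These 76 include the 28 members past the threshold in c-MYC versus NL. Over all pairs of gene and alternative, a call was lost in 161 and gained in 21. The cause of these shifts was not tested, except that fewer genes enter under the stricter filter. Depth limits control values of a few reads.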
